A study of Mus musculus with 18 samples.

Results

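Sperm small RNA of F2 control males was set against that of F1 control males, 3 libraries on each side. These 6 of the 18 libraries of the study were chosen by their labels alone, as the F2_Con and F1_Con groups. All animals were ICR mice, an outbred strain. Neither group was exposed to gas. The study's exposed line (NHS) descends from F0 males that received ammonia and hydrogen sulphide from 3 weeks of age for 5 weeks, and F1 males of the design were mated with untreated females at 8 weeks. The labels do not say that the control males descend from the F0 control males, how the semen was purified, how old the F2 males were at collection, or whether each replicate is its own animal. The p-values therefore describe library-to-library spread, some of which may be technical. Generation, cohort and time of collection also cannot be told apart here, since each control group is a single set of libraries.

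Sperm carry little cytoplasm and a small pool of short RNA. In the testis, piRNAs bind PIWI proteins and silence transposons, and the shorter miRNAs bind Argonaute proteins and lower target mRNAs through their seed, bases 2 to 8 from the 5′ end. Maturing sperm also take up RNA from epididymal vesicles and lose most intact ribosomal RNA, and fragments of tRNA and rRNA are common in such libraries. A semen sample can hold somatic cells too, among them red blood cells, whose miR-451a and miR-144 are made from a shared gene cluster. In such bulk libraries, fewer cells of a type and less RNA per cell cannot be told apart.

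Mature sequences of the miRNAs on which the comparison turns are shown because relatives in these groups share a seed (RefSeq, GRCm38.p6, capitals mark bases 2 to 8). The levels below sum both arms of a precursor, and the arms are taken apart further on. Of 136 named arms, 104 had a RefSeq sequence. The red blood cell cluster gives a pair of unlike seeds:
miR-451a: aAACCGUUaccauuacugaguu
miR-144-3p: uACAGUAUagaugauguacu
The miR-99 and miR-100 sequences share the seed ACCCGUA, and both miR-125 sequences share CCCUGAG:
miR-99a-5p: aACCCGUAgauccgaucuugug
miR-99b-5p: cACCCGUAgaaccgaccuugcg
miR-100-5p: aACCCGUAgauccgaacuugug
miR-125a-5p: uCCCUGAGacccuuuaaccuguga
miR-125b-5p: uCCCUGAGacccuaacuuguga
let-7e is encoded beside miR-125a:
let-7e-5p: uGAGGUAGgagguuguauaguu
Mir144 (chr11:78073005-78073070) and Mir451a (chr11:78073170-78073241) lie 99 bases apart on the + strand. Mirlet7e (chr17:17830352-17830444) and Mir125a (chr17:17830812-17830879) lie 367 bases apart on the + strand. Mir100 (chr9:41531425-41531504), Mirlet7a-2 (chr9:41536716-41536811) and Mir125b-1 (chr9:41581926-41582002) follow each other on the + strand of chromosome 9.

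The deposited lists of the 6 libraries were complete, with 23909913, 18072900 and 26131625 reads in F2_Con and 25586234, 23535824 and 25484633 reads in F1_Con. Levels are given as the authors' TPM, which are reads per 1000000 reads of the library with no length term, so levels of different genes were not compared. The germ cell markers miR-34b and miR-34c and the X-linked testis cluster were present in every library. miR-143, a smooth muscle miRNA, was present as well, at 27736, 11921 and 11520.0 TPM in F2_Con and 8873, 5684 and 12399 TPM in F1_Con. One property set the F2_Con libraries apart from each other. novel_mir1, an entry predicted as a miRNA that overlaps a RefSeq tRNA gene (n-TAcgc10), stood at 18720.2, 5399 and 85.6 TPM in F2_Con and at 70.8, 67.9 and 223 TPM in F1_Con. F2_Con replicates 1 and 2 are thus high in this tRNA fragment, as are 3 of the other 7 complete libraries, while F2_Con replicate 3 and all F1_Con libraries are low. High and low tRNA libraries are named below by novel_mir1 alone. Values for replicate 3 alone against F1_Con stand beside some of the results below, and the part of the tRNA difference in the results was not tested.

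No known miRNA passed the threshold between the F2 and F1 controls, although miR-122, miR-125b and the red blood cell miRNAs differed by large factors in these libraries. Of 1009 miRNAs (arms of a precursor summed), 454 were tested, which held 99.97% of the miRNA reads in both groups. edgeR's quasi-likelihood test with Benjamini-Hochberg adjustment called 0 of 454 (0%), while 52 (11.5%) had an unadjusted p under 0.05, and the lowest adjusted p was 0.0562. DESeq2 called 19 of the same 454 (4.19%), 7 higher and 12 lower in F2_Con, and gave no adjusted p for 84. The median log2 fold change of all tested miRNAs was 0.06 with 238 higher and 216 lower. Scaling by library totals in place of TMM moved this median by 0.30 to 0.36, so fold changes below are to be read relative to the TMM scale. All 3 F2_Con libraries lay above all 3 F1_Con libraries in 34 miRNAs (7.49%) and below them in 37 (8.15%) on that scale. On the TPM scale these numbers were 60 (13.2%) and 17 (3.74%).

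The smallest p belonged to miR-122, the main miRNA of hepatocytes. miR-122 stood at 1.63, 4.48 and 6.31 TPM in F2_Con and at 20.1, 164 and 46.3 TPM in F1_Con. Every F2_Con library was below every F1_Con library, and the F1_Con values themselves spread widely. The means were 4.14 ± 2.36 and 77.0 ± 76.9 TPM (SD, n = 3 each), a log2 fold change of -4.61 (SE 0.86, edgeR adjusted p = 0.0562, DESeq2 adjusted p = 1.13e-07). The F0 control libraries had 55.2, 27.8 and 33.8 TPM. miR-125b, which acts in haematopoietic and neural differentiation, was on the other side at 4901, 3578 and 4744 TPM in F2_Con and 568, 429 and 1535 TPM in F1_Con. The groups did not overlap, at 4408 ± 723 against 844 ± 602 TPM (n = 3 each), with a log2 fold change of 2.19 (SE 0.44, edgeR adjusted p = 0.0575, DESeq2 adjusted p = 0.000939). F0 control libraries, at 2622, 4364 and 2991 TPM, lay above all F1_Con libraries. For miR-122 and miR-125b, replicate 3 of F2_Con alone against F1_Con gave log2 fold changes of -4.05 and 2.20.

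**Figure D1:**
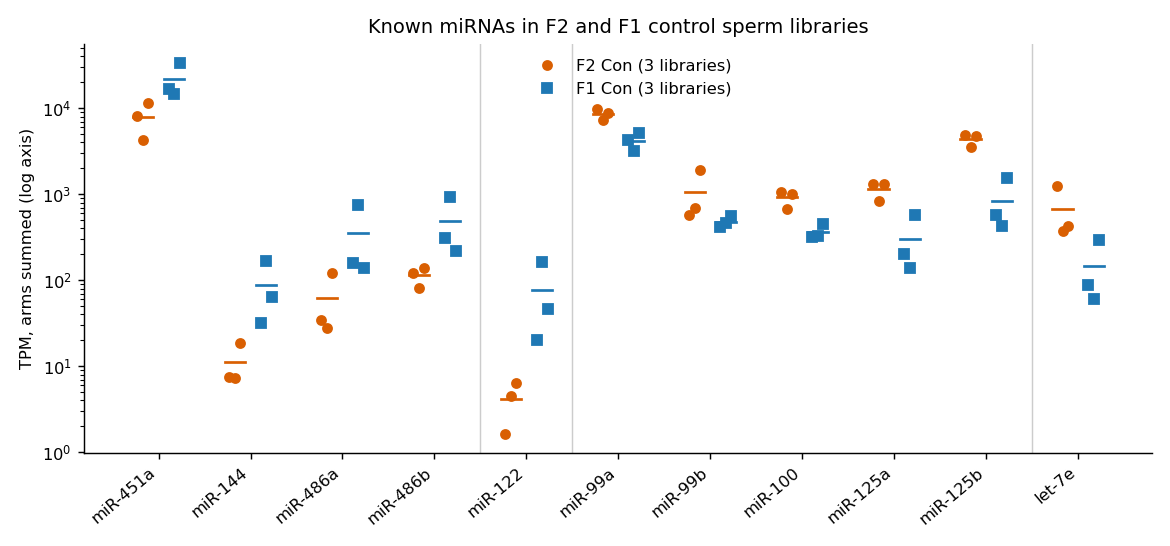
TPM of known miRNAs with both arms summed (log axis) in each F2 Con library (circles) and each F1 Con library (squares), with short lines at the group means. miR-125b is at 3578 to 4901 TPM in F2 Con against 429 to 1535 TPM in F1 Con, and the 4 red blood cell miRNAs are lower in every F2 Con library than in any F1 Con library.

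All 4 miRNAs of the red blood cell list were lower in F2_Con, and for each the 3 libraries lay below those of F1_Con on the TMM and on the TPM scale, as did 8.15% and 3.74% of all miRNAs. Their median log2 fold change was -2.80, against 0.06 over all miRNAs tested. None was called by edgeR (0%). All 4 had an unadjusted p under 0.05, against 11.5% of all miRNAs, and all 4 passed DESeq2, against 4.19%. miR-451a, which is cut by AGO2 without Dicer and is abundant in erythrocytes, had 8129.9, 4287 and 11493 TPM in F2_Con and 16742, 14713 and 33978 TPM in F1_Con. Its log2 fold change was -1.74 (SE 0.55, edgeR adjusted p = 0.239, DESeq2 adjusted p = 0.0368). F0 control libraries held 68695, 9995 and 76735 TPM, so one of them lay within the F2_Con range. miR-144, from the same cluster, had 7.44, 7.30 and 18.8 TPM in F2_Con and 31.8, 167 and 63.3 TPM in F1_Con (log2 fold change -3.38, SE 0.83, edgeR adjusted p = 0.146). miR-486b, an erythroid and muscle miRNA, stood at 120.2, 81.0 and 139 TPM in F2_Con and 314, 929.8 and 216 TPM in F1_Con (-2.58, SE 0.67, edgeR adjusted p = 0.185). miR-486a, its partner on the opposite strand, had 34.5, 28.1 and 122 TPM in F2_Con and 158, 755 and 137 TPM in F1_Con (-3.01, SE 0.96, edgeR adjusted p = 0.243). Reads of miR-486a and miR-486b may be split between near-identical sequences, so their separate values are uncertain. Their F1_Con values are carried upward by replicate 2, the library that is also highest in miR-144 and miR-122.

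Together the 4 red blood cell miRNAs took 2.57%, 2.17% and 3.97% of the miRNA reads in F2_Con and 12.9%, 9.60% and 10.6% in F1_Con. The group means were 2.90 ± 0.943% and 11.0 ± 1.72% (n = 3 each), and the F1_Con libraries were close to each other by this measure. The F0 control libraries held 13.4%, 2.55% and 13.6%. These shares mostly follow miR-451a, which averaged 7970 of the list's 8156 TPM in F2_Con and 21811 of 22735 TPM in F1_Con. Without F1_Con replicate 2 the median log2 fold change of the list was -1.82, and with F2_Con replicate 3 as the only F2_Con library it was -2.18, all 4 members lower in both cases. What blood carried over at collection contributed was not tested.

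All 5 tested members of the miR-99, miR-100 and miR-125 families had higher means in F2_Con, with a median log2 fold change of 0.99. These miRNAs come from clusters that also encode let-7 members. On the TMM scale 4 of the 5 did not overlap between groups, and on the TPM scale all 5 did not, against 7.49% and 13.2% of all miRNAs. edgeR called 0 of the 5. miR-99a had 9720.3, 7268 and 8686 TPM in F2_Con and 4261, 3196 and 5161 TPM in F1_Con, with a log2 fold change of 0.66 (SE 0.37, edgeR adjusted p = 0.461). miR-99b, which is encoded beside let-7e and miR-125a, had 574, 686 and 1919.7 TPM in F2_Con and 414, 461 and 561 TPM in F1_Con (0.77, SE 0.45, edgeR adjusted p = 0.509). miR-100 had 1072, 677 and 1004 TPM in F2_Con and 315, 326 and 449 TPM in F1_Con (0.99, SE 0.41, edgeR adjusted p = 0.385). It and miR-125a are named to complete the list, after their values were seen. miR-125a had 1299.7, 827 and 1302 TPM in F2_Con and 199.6, 138 and 572 TPM in F1_Con (1.73, SE 0.74, edgeR adjusted p = 0.423). The 5 together took 5.44%, 6.43% and 5.95% of miRNA reads in F2_Con and 4.32%, 2.64% and 2.54% in F1_Con. The F2_Con shares of 5.94 ± 0.496% lay within the range of the F0 control libraries, which held 6.18%, 6.56% and 3.98%. Scaling by totals raised the list's median log2 fold change to 1.34, and replicate 3 of F2_Con alone gave 1.56.

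let-7 members were less uniform, with 7 of 9 higher and 2 lower in F2_Con, and a median of 0.58. On the TMM scale 3 of the 9 lay wholly above F1_Con (7.49% of all miRNAs), and on the TPM scale 1 of 9 (13.2%). let-7e had 1237, 376 and 429 TPM in F2_Con and 89.0, 60.2 and 292 TPM in F1_Con. These do not overlap, with a log2 fold change of 2.05 (SE 0.55, edgeR adjusted p = 0.188, DESeq2 adjusted p = 0.0177). let-7a had 24349, 10785 and 11183 TPM in F2_Con and 3085, 3788 and 11783 TPM in F1_Con, which overlap in TPM but not on the TMM scale. let-7c was highest of all in F1_Con replicate 3, with 26046, 14064 and 15630.0 TPM in F2_Con and 5989.6, 7236 and 28064 TPM in F1_Con. let-7 members differ by 1 or a few bases, and how reads that match several were assigned is not given in the sources used here.

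The Dlk1-Dio3 cluster is an imprinted locus whose miRNAs are transcribed from the maternal allele in somatic tissue. Of its 43 tested members, 37 were higher and 6 lower in F2_Con, with a median log2 fold change of 0.49. On the TMM scale 5 of the 43 lay wholly above F1_Con, and on the TPM scale 19 of 43, against 7.49% and 13.2% of all miRNAs. edgeR called 0, and 4 of 43 had an unadjusted p under 0.05, against 11.5% of all miRNAs. miR-411 had 1461, 1114 and 1287 TPM in F2_Con and 322, 586 and 379 TPM in F1_Con, with no overlap (log2 fold change 1.19, SE 0.53, edgeR adjusted p = 0.423). miR-379 had 864, 376 and 664 TPM in F2_Con and 128, 361 and 233 TPM in F1_Con (1.02, SE 0.53, edgeR adjusted p = 0.456). miR-127, which lies antisense to Rtl1 in this locus, overlapped at 1349.7, 1123 and 2041 TPM in F2_Con and 775, 562 and 2748 TPM in F1_Con. The cluster took 1.51 ± 0.104% of miRNA reads in F2_Con and 1.12 ± 0.0966% in F1_Con (n = 3 each), without overlap. With scaling by library totals 42 of 43 members were higher and the median was 0.85. With a term for high and low tRNA libraries, added after seeing the data, 30 of 43 were higher and the median was 0.30.

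**Figure D2:**
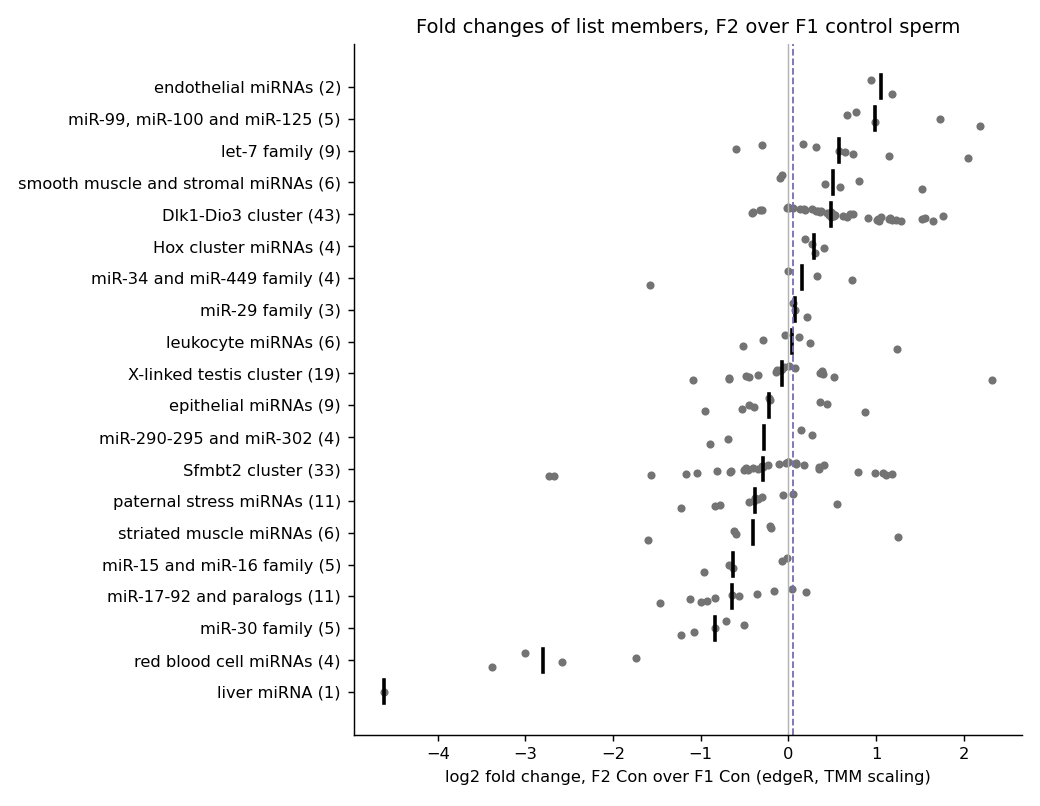
log2 fold change of each tested member of each miRNA list, F2 Con over F1 Con (edgeR, TMM scaling), 1 point a member, with black ticks at the list medians, a dashed line at the median of all tested miRNAs (0.06) and the number of members in brackets. The 4 red blood cell miRNAs run from -3.38 to -1.74 and the 5 of the miR-99, miR-100 and miR-125 list from 0.66 to 2.19, while most other lists lie across 0.

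Lower means in F2_Con were also found in the miR-30, miR-17-92 and miR-15/16 lists. All 5 miR-30 members were lower, with a median log2 fold change of -0.83. On the TMM scale 1 of the 5, miR-30a, lay wholly below F1_Con (8.15% of all miRNAs), and on the TPM scale 0 (3.74%). They took 1.62 ± 0.492% of miRNA reads in F2_Con and 2.90 ± 0.645% in F1_Con, without overlap. miR-30a had 544, 273 and 418 TPM in F2_Con and 349.5, 671 and 1519.8 TPM in F1_Con, which overlap in TPM. Of 11 members of the miR-17-92 cluster and its paralogs, which are linked to proliferating cells, 9 were lower, with a median of -0.64. On the TMM scale 4 of the 11 lay wholly below F1_Con, against 8.15% of all miRNAs, and on the TPM scale 1 of 11, against 3.74%. Their share was 1.01 ± 0.278% in F2_Con and 1.68 ± 0.219% in F1_Con without overlap. miR-25, one of the 4, had 588, 277 and 374 TPM in F2_Con and 441, 655 and 915 TPM in F1_Con, which overlap in TPM. All 5 miR-15/16 members had negative log2 fold changes, with a median of -0.63. On the TPM scale the picture was weaker, with 3 of the 11 miR-17-92 members and 2 of the 5 miR-15/16 members higher on average in F2_Con. None of these members was called by edgeR.

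Marker lists of germ cells took shares of miRNA reads that overlapped between the groups. The 6 listed miR-34 and miR-449 miRNAs, of which 4 were tested, act in meiotic and haploid germ cells and in ciliated epithelium. They took 8.66 ± 2.61% of miRNA reads in F2_Con and 8.43 ± 2.08% in F1_Con (n = 3 each). Of the 4 tested, 2 were higher and 2 lower, and 1 had an unadjusted edgeR p under 0.05 (11.5% of all miRNAs). On the TMM scale 0 of the 4 lay wholly above or below F1_Con, and on the TPM scale 1 lay wholly above (13.2% of all miRNAs). miR-34c had 7376, 4524 and 7925 TPM in F2_Con and 3780.3, 5148 and 6972 TPM in F1_Con. miR-34b had 10602, 17109.9 and 12993 TPM in F2_Con and 9274, 6988 and 8723 TPM in F1_Con, wholly above in TPM, with a log2 fold change of 0.32 (SE 0.52) on the TMM scale. The 19 tested members of the X-linked testis cluster took 4.92% in F2_Con and 4.99% in F1_Con on average, with 8 higher and 11 lower. On the TMM scale 1 lay wholly above F1_Con and 3 wholly below (7.49% and 8.15% of all miRNAs). On the TPM scale it was 1 and 0 (13.2% and 3.74%), and 1 had an unadjusted edgeR p under 0.05. The cluster's member miR-465c overlapped, at 5079, 4397 and 4689 TPM in F2_Con and 2070.4, 2881 and 8665 TPM in F1_Con.

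Apart from the red blood cell list and the liver miRNA miR-122, both lower in F2_Con as given above, markers of somatic cells gave no common direction. Of 6 smooth muscle and stromal miRNAs 4 were higher and 2 lower (median log2 fold change 0.51), at 8.33% of miRNA reads in F2_Con and 6.52% in F1_Con, with overlap. Of 9 epithelial miRNAs 3 were higher and 6 lower (median -0.22), at 3.45% in F2_Con and 4.63% in F1_Con, with overlap. Of 6 leukocyte miRNAs 3 were higher and 3 lower. Both endothelial miRNAs were higher (median 1.06), with mean shares of 0.643% in F2_Con and 0.298% in F1_Con. These shares did not overlap, though F2_Con replicate 3 (0.579%) and F1_Con replicate 3 (0.570%) were close. In TPM the list overlapped. Nearly all of its reads belonged to miR-126a, which overlapped in TPM at 2429, 1191 and 1714 in F2_Con and 297, 162 and 1853 in F1_Con. Of 6 striated muscle miRNAs 1 was higher and 5 lower. A list of 11 sperm miRNAs linked to paternal stress had 2 higher and 9 lower on the TMM scale, with a median of -0.38. The imprinted Sfmbt2 cluster had 12 higher and 21 lower of 33, all 3 miR-29 and all 4 Hox cluster miRNAs were higher with medians of 0.08 and 0.29, and the miR-290-295 and miR-302 list had 2 higher and 2 lower.

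Some miRNAs of no list ranked high as well. miR-5121 had 10.8, 13.2 and 15.0 TPM in F2_Con and 49.0, 133 and 93.5 TPM in F1_Con, with a log2 fold change of -3.16 (SE 0.75, edgeR adjusted p = 0.146, DESeq2 adjusted p = 0.000805). Its F2_Con libraries were close together and all far below F1_Con. miR-23b, a relative of miR-23a, had 2422, 709.8 and 1185 TPM in F2_Con and 303, 330.1 and 532 TPM in F1_Con (1.57, SE 0.46, edgeR adjusted p = 0.227). miR-7241 had 12.9, 18.8 and 13.6 TPM in F2_Con and 3.32, 3.44 and 5.73 TPM in F1_Con (1.58, SE 0.44, edgeR adjusted p = 0.207). Neither overlapped between groups.

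A miRNA precursor is cut into a 5′ and a 3′ arm, and the arm that carried most reads often differed between libraries. Among 213 precursors with at least 100 reads in every library, the group means of F2_Con and F1_Con put most reads on different arms in 62. The main arm also changed within groups, so the 62 are not a count of group differences. For miR-191 the 5′ share was 87.6%, 10.3% and 84.8% in F2_Con and 71.0%, 15.4% and 85.6% in F1_Con. Among the 213, the 5′ share was wholly higher in F2_Con in 10 (4.69%) and wholly lower in 19 (8.92%). The median absolute difference of the group means was 7.79 percentage points. For miR-125b the 5′ arm made up 56.4%, 29.6% and 62.5% of reads in F2_Con and 8.60%, 23.7% and 1.79% in F1_Con. The 5′ arm, whose sequence is given above, stood at 2762, 1057 and 2964 TPM in F2_Con and 48.8, 101 and 27.5 TPM in F1_Con. The 3′ arm miR-125b-1-3p was also higher without overlap, at 2041, 1907 and 1561 TPM in F2_Con and 380, 242 and 749 TPM in F1_Con. The 3′ arm miR-125b-2-3p overlapped, at 97.5, 614 and 219 TPM in F2_Con and 139, 85.1 and 758 TPM in F1_Con. miR-99a went the other way, with a 5′ share of 74.1%, 22.6% and 29.8% in F2_Con and 89.4%, 95.2% and 93.2% in F1_Con. Its 3′ arm, which has another seed, had 2516, 5623 and 6100 TPM in F2_Con and 453, 153 and 352 TPM in F1_Con. Its 5′ arm overlapped, at 7204, 1644 and 2585 TPM in F2_Con and 3808, 3043 and 4809 TPM in F1_Con, so the higher sum of miR-99a lies in the 3′ arm. In both miRNAs the groups did not overlap in the share. For let-7e, the 5′ arm overlapped at 515, 65.3 and 281 TPM in F2_Con and 34.2, 8.37 and 249 TPM in F1_Con. The 3′ arm of let-7e did not, at 722, 311 and 148 TPM in F2_Con and 54.8, 51.8 and 43.7 TPM in F1_Con. let-7c did not follow the groups as clearly, at 70.4%, 1.62% and 7.30% in F2_Con and 89.1%, 69.0% and 85.5% in F1_Con. miR-26a varied as much within a group as between groups, at 4.62%, 11.0% and 4.97% in F2_Con and 81.7%, 1.73% and 87.9% in F1_Con. miR-144 kept to its 3′ arm in every library, with 5′ shares of 3.37%, 3.03% and 1.63% in F2_Con and 12.2%, 8.29% and 3.78% in F1_Con.

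**Figure D3:**
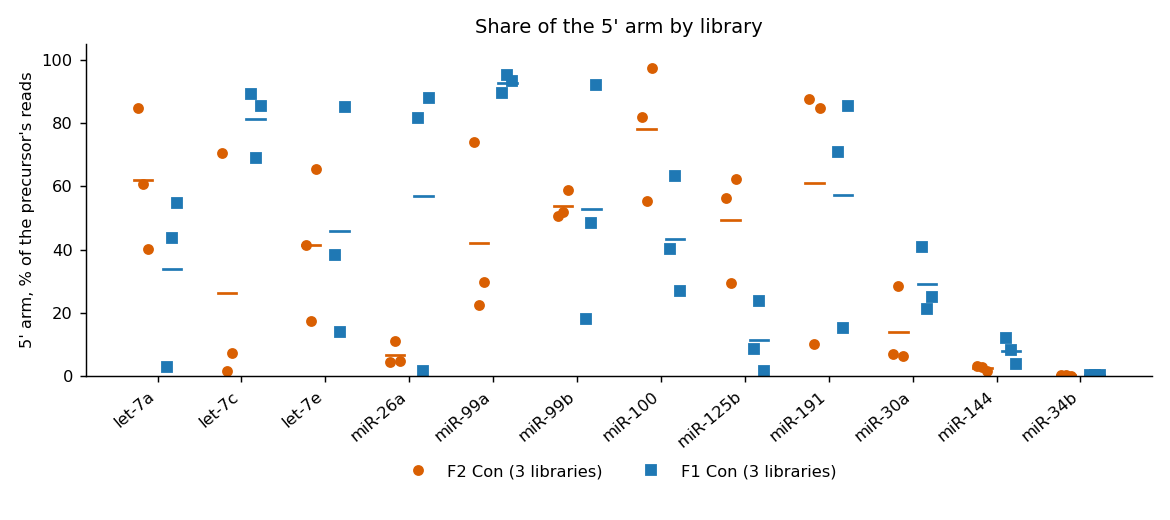
Share of the 5′ arm among the reads of a precursor, in percent, for each F2 Con library (circles) and F1 Con library (squares). miR-125b lies higher in every F2 Con library (29.6% to 62.5%) than in F1 Con (1.79% to 23.7%), miR-99a lies lower, and let-7a, miR-26a and miR-191 scatter within the groups.

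Of 6754 entries that the authors predicted as miRNAs, 240 were tested and edgeR called 5 (2.08%), of which 3 were higher in F2_Con (1.25%) and 2 lower (0.833%). DESeq2 called 23 (9.58%) and gave no adjusted p for 75 of the 240. In edgeR 38 (15.8%) had an unadjusted p under 0.05. In TPM, 6.67% of the 240 lay wholly above F1_Con in F2_Con and 12.1% wholly below. The mature sequences of the 5 are shown, with their precursors (mm10), because most of them overlap other genes:
novel_mir6725: uggagcugcgccugcuggug
novel_mir16: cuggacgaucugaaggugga
novel_mir5487: ggccaaguucgggguguucgug
novel_mir3704: agggagagcgagggcgag
novel_mir5870: ugcccugugguugcuggaggc
novel_mir6725 (chr2:91030857-91030907, - strand) lies in an exon of Gm13777, a processed pseudogene in GENCODE and a coding gene in RefSeq. It had 8.11, 12.6 and 3.56 TPM in F2_Con and 0.899, 0.935 and 0.314 TPM in F1_Con, with a log2 fold change of 3.76 (SE 0.75, edgeR adjusted p = 0.0373). novel_mir16 (chr2:39004766-39004811, - strand) lies in a coding exon of Rpl35, a ribosomal protein gene, with a Wdr38 intron on the other strand. It had 0.502, 1.60 and 2.33 TPM in F2_Con and 0.0782, 0.212 and 0.157 TPM in F1_Con (3.69, SE 0.85, edgeR adjusted p = 0.0426). novel_mir5487 (chr4:135920867-135920947, + strand) lies in a coding exon of Fuca1, a lysosomal fucosidase gene. It had 2.72, 1.72 and 1.42 TPM in F2_Con and 0.117, 0.382 and 0 TPM in F1_Con (4.21, SE 0.98, edgeR adjusted p = 0.0426). Each of these 3 was higher in all F2_Con libraries.

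Both lower entries had no read in any F2_Con library, and DESeq2 gave no adjusted p for either. novel_mir3704 (chr17:83998122-83998194, - strand, no annotated gene) had 0.313, 1.95 and 2.35 TPM in F1_Con and was at least 11.4-fold lower in F2_Con against a floor of 3 counts per library (edgeR adjusted p = 0.0426). novel_mir5870 (chr13:49684259-49684320, + strand) overlaps the snoRNA gene Gm25394 in an intron of Iars. It had 1.33, 2.12 and 1.10 TPM in F1_Con and was at least 11.2-fold lower in F2_Con (edgeR adjusted p = 0.0482). These calls rest on few reads. edgeR called 0 predicted miRNAs without F2_Con replicate 1, F2_Con replicate 2, F1_Con replicate 2 or F1_Con replicate 3, 1 without F1_Con replicate 1 and 12 without F2_Con replicate 3. Of the 16 predicted miRNAs named by rule, 4 overlap RefSeq tRNA genes and 2 rRNA genes. A second tRNA entry, novel_mir4, had 1216, 762 and 95.4 TPM in F2_Con and 90.5, 169 and 68.6 TPM in F1_Con, the same split of the F2_Con libraries as novel_mir1. The remaining tRNA entries differed from this. novel_mir6624 had 532, 972 and 14.4 TPM in F2_Con and 99.4, 1567 and 414 TPM in F1_Con, so its highest value was in F1_Con. novel_mir5 had 135, 165 and 246 TPM in F2_Con and 123, 146 and 277 TPM in F1_Con, with replicate 3 the highest of F2_Con.

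**Figure D4:**
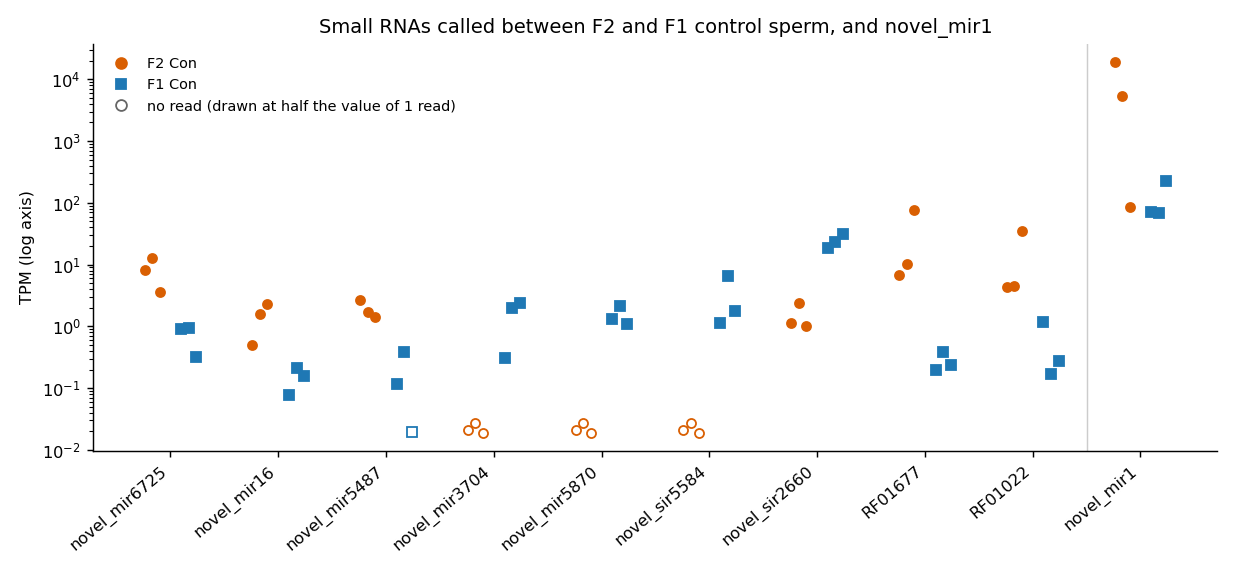
TPM (log axis) of the predicted miRNAs, predicted siRNAs and Rfam families that edgeR called, and of novel_mir1, in each F2 Con library (circles) and F1 Con library (squares). Open symbols are libraries with no read, and novel_mir1 is at 18720.2 and 5399 TPM in F2 Con replicates 1 and 2 against 85.6 TPM in replicate 3.

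Predicted siRNAs are entries the authors classed as short interfering RNAs. Of 7197 such entries 59 were tested, and edgeR called 0 higher (0%) and 2 lower in F2_Con (3.39%). DESeq2 called 15 (25.4%), and 12 (20.3%) had an unadjusted p under 0.05. In TPM, 13.6% lay wholly above F1_Con in F2_Con and 11.9% wholly below. novel_sir2660 had 1.13, 2.38 and 1.03 TPM in F2_Con and 18.8, 22.9 and 31.0 TPM in F1_Con, with a log2 fold change of -5.15 (SE 1.03, edgeR adjusted p = 0.00496). Its groups are far apart and each is tight. novel_sir5584 had no read in F2_Con and 1.13, 6.54 and 1.77 TPM in F1_Con, at least 23.2-fold lower in F2_Con (edgeR adjusted p = 0.00496). Without F2_Con replicate 1 or replicate 2 edgeR called 1, novel_sir5584, and without F2_Con replicate 3 it called 13. With F2_Con replicate 3 as the only F2_Con library it called 0.

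Of 764 Rfam families, the class of other structural RNA, 231 were tested, and edgeR called 2 higher (0.866%) and 0 lower in F2_Con. DESeq2 called 16 (6.93%), and 31 (13.4%) had an unadjusted p under 0.05. In TPM, 12.6% lay wholly above F1_Con in F2_Con and 6.93% wholly below. RF01677 had 6.82, 10.4 and 75.7 TPM in F2_Con and 0.195, 0.382 and 0.235 TPM in F1_Con, with a log2 fold change of 6.08 (SE 1.10, edgeR adjusted p = 0.0117). RF01022 had 4.35, 4.48 and 35.5 TPM in F2_Con and 1.17, 0.170 and 0.275 TPM in F1_Con (4.26, SE 0.94, edgeR adjusted p = 0.0423). In both families F2_Con replicate 3 is several times higher than the other F2_Con libraries. RF01677 reached 1 CPM in the 3 F2_Con libraries and in no other complete library, so it entered the test only through the group where it is high, and its p is no fair test. It dropped out of the test when any F2_Con library was left out. Leaving out any 1 of the 6 libraries left 0 called. RF00406 had 53.9, 137 and 177 TPM in F2_Con and 9.26, 25.3 and 20.9 TPM in F1_Con (2.25, edgeR adjusted p = 0.0899). RF00493 was low in F2_Con, at 0.502, 1.55 and 1.15 TPM against 16.9, 6.29 and 12.6 TPM in F1_Con (-3.75, edgeR adjusted p = 0.0575). RF00784 had 0.502, 0.166 and 1.22 TPM in F2_Con and 3.67, 4.16 and 3.85 TPM in F1_Con (-3.05, edgeR adjusted p = 0.0575). Neither of these families overlapped between groups.

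Of 35824 known piRNAs 6463 were tested, with 95.2% of the class reads in F2_Con and 92.6% in F1_Con. edgeR called 0 (0%), while 580 (8.97%) had an unadjusted p under 0.05, and the lowest adjusted p was 0.190. DESeq2 called 30 (0.464%), 15 in each direction. In TPM, 1.36% lay wholly above F1_Con in F2_Con and 11.3% wholly below. mmu_piR_007729 had 256, 364 and 877 TPM in F2_Con and 28.7, 56.8 and 78.8 TPM in F1_Con, with a log2 fold change of 3.52 (SE 0.77, edgeR adjusted p = 0.264). mmu_piR_027801 had 3.60, 3.38 and 4.21 TPM in F2_Con and 0.664, 0.340 and 0.746 TPM in F1_Con (3.29, SE 0.61, edgeR adjusted p = 0.190). Neither overlapped between groups. mmu_piR_022097 had 2225, 1723 and 3161 TPM in F2_Con and 22352, 11839 and 9381 TPM in F1_Con, also without overlap. mmu_piR_000691 overlapped at 36666, 67259 and 5564 TPM in F2_Con and 26063, 10418 and 6634 TPM in F1_Con, with the high tRNA libraries of F2_Con at the top.

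Fewer distinct piRNAs were listed in F2_Con. Known piRNAs numbered 21475, 17303 and 19410 in F2_Con and 27050, 23956 and 27976 in F1_Con, a ratio of 0.737 between the means. When each library was thinned to the smallest total, 18072900 reads, the ratio of expected numbers was 0.754. Predicted piRNAs numbered 39878, 28647 and 32956 in F2_Con and 55753, 41608 and 52571 in F1_Con, a ratio of 0.677 and after thinning 0.751. In both kinds all F2_Con libraries lay below all F1_Con libraries, and the two-sided exact permutation p was 0.1, the smallest that 3 against 3 libraries allow (0.3 adjusted over 6 classes). Predicted piRNAs with only 1 read numbered 18263, 8938 and 5943 in F2_Con and 35273, 21255 and 23180 in F1_Con. The difference of the means was -15521 for these and -16150 for all predicted piRNAs. Nearly all of that difference thus lay in entries with 1 read. For known piRNAs the difference was -1519 for entries with 1 read, whose numbers overlapped, and -6931 for all. Known miRNA entries overlapped, at 1110, 1010 and 1032 in F2_Con and 1119, 1085 and 1132 in F1_Con. The share of reads taken by known piRNAs was 8.45 ± 2.48% in F2_Con and 8.35 ± 1.81% in F1_Con (n = 3 each). Taken over small RNA reads only, the difference of these shares was -6.52 percentage points.

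**Figure D5:**
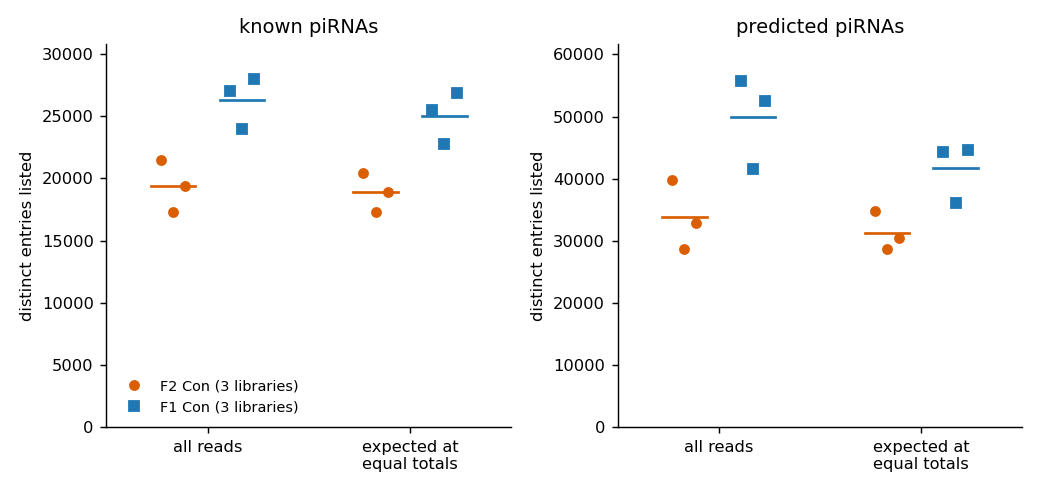
Number of distinct entries listed in each F2 Con library (circles) and F1 Con library (squares), for all reads and for the number calculated after thinning every library to 18072900 reads. Known piRNAs and predicted piRNAs are fewer in every F2 Con library than in any F1 Con library at both depths.

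Predicted piRNAs are reads that the authors assigned to repeats. Of 474788 such entries 947 were tested, with 66.3% of the class reads in F2_Con and 53.1% in F1_Con, and edgeR called 0 (0%), while 163 (17.2%) had an unadjusted p under 0.05. DESeq2 called 117 (12.4%). All F2_Con libraries lay above all F1_Con libraries in TPM for 9.08% of the 947 and below them for 12%. The sequences that ranked first are shown because several overlap each other:
novel_pir754667: ggctctgtggcgcaatgg
novel_pir754672: ggctctgtggcgcaatggatagcgca
novel_pir661189: agactatactttcagggatc
novel_pir83653: cgtttcccggccaatgcacca
novel_pir249668: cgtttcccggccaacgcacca
novel_pir754667 had 0.0418, 0.166 and 0.230 TPM in F2_Con and 42.9, 232 and 646 TPM in F1_Con, with a log2 fold change of -11.43 (SE 2.20, edgeR adjusted p = 0.0639). novel_pir754672 begins with all 18 bases of that sequence and goes on for 8 more. It had 1.76, 0.498 and 295 TPM in F2_Con and 117, 1621 and 149 TPM in F1_Con, so the longer form was high in F2_Con replicate 3 while the 18-base form was low there. novel_pir661189 had 654, 202 and 37.4 TPM in F2_Con and 0.547, 0.935 and 2.39 TPM in F1_Con (7.91, edgeR adjusted p = 0.206). novel_pir83653 and novel_pir249668 differ by T15C, counted from 1 at the 5′ end of the first. novel_pir83653 had 2219.6, 7042 and 91.8 TPM in F2_Con and 104, 36.2 and 17.7 TPM in F1_Con. novel_pir249668 had 554, 2816 and 476 TPM in F2_Con and 100.3, 93.0 and 50.3 TPM in F1_Con. The 2 relatives were both highest in F2_Con replicate 2. Of the 12 named sequences of this class 4 end in CCA. novel_pir295434 had no read in F2_Con and 7.43, 3.02 and 5.45 TPM in F1_Con, at least 39.1-fold lower in F2_Con (edgeR adjusted p = 0.0639).

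Over all reads of predicted piRNAs, the mark of primary piRNAs, a first base T in the DNA letters of the list, was carried by 17.7 ± 10.6% in F2_Con and 30.6 ± 7.68% in F1_Con, with overlap. Lengths of 24 to 32 nt made up 12.2%, 5.46% and 34.1% in F2_Con and 39.5%, 34.5% and 26.7% in F1_Con. The low values belong to F2_Con replicates 1 and 2, which are high in novel_mir1. F0_Con replicate 2, also high in novel_mir1, had 20.1%, against 20.4% and 18.2% in F0_Con replicates 1 and 3. A link between these lengths and the tRNA reads was not tested. Reads in ERVL elements, a family of endogenous retroviruses, took 4.30%, 2.53% and 6.45% in F2_Con and 10.2%, 9.19% and 11.1% in F1_Con. This was the one feature of the 12 without overlap (two-sided exact permutation p = 0.1, adjusted 0.4).

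Shares of the read classes overlapped between the groups except for predicted piRNAs. Known miRNAs took 32.3%, 20.3% and 29.7% of all listed reads in F2_Con and 13.3%, 17.3% and 32.6% in F1_Con (two-sided exact permutation p = 0.4). Predicted piRNAs took 1.27%, 2.76% and 1.36% in F2_Con and 0.819%, 1.19% and 1.04% in F1_Con, without overlap (exact permutation p = 0.1, adjusted 0.571 over 10 classes). Rfam families took 5.13 ± 3.18% in F2_Con and 8.24 ± 2.88% in F1_Con. Reads in repeats took 31.2 ± 2.68% in F2_Con and 38.3 ± 12.2% in F1_Con.

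The exposed line gives a second F2 to F1 difference that shares no library with the controls. For known miRNAs it rests on 3 F2_NHS libraries and 1 F1_NHS library, which was assumed to vary like the others. In that fit of 16 libraries and 461 miRNAs, edgeR called 0 between F2_NHS and F1_NHS (0%, 28 at an unadjusted p under 0.05) and 0 for the difference between the lines (0%, 33 at an unadjusted p under 0.05). It called 1 between F2_Con and F1_Con, miR-125b, with a log2 fold change of 2.26 and an adjusted p of 0.0451. Of the 461 miRNAs 225 (48.8%) had the same sign in both lines. Among the 52 with an unadjusted edgeR p under 0.05 in the controls, 24 had the same sign. miR-125b had 3489, 4186 and 5426 TPM in F2_NHS and 1363 TPM in F1_NHS (log2 fold change 1.43, SE 0.64, edgeR adjusted p = 0.722). miR-451a had 13993, 8818 and 24087 TPM in F2_NHS and 58904 TPM in F1_NHS (-2.17, SE 0.65, edgeR adjusted p = 0.596). miR-144, in contrast, had 6.59, 36.1 and 68.7 TPM in F2_NHS and 26.0 TPM in F1_NHS (0.21). For predicted miRNAs, whose lists are whole in all 18 libraries, edgeR called 0 of 299 between F2_NHS and F1_NHS (0%, 26 at an unadjusted p under 0.05) and 1 for the difference between the lines (0.334%). Of the 299 entries 147 (49.2%) had the same sign in both lines, as did 26 of the 46 with an unadjusted edgeR p under 0.05 in the controls.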

How the data were processed

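Small RNA reads of 6 F2 and F1 control sperm libraries were compared. The authors deposited a list per library with whole-number read counts and TPM per the file headers, which are counts per 1000000 reads. Genome build mm10 comes from the submitters' processing notes, while the sources used here do not name the aligner, filters or prediction tools. Counts were fitted per class with edgeR 4.0.16 in R 4.3.3 (TMM within the class, group means, at least 1 CPM in at least 3 libraries) over the 13 libraries with complete lists, so that all groups share 1 estimate of the spread. The contrast was F2_Con over F1_Con, two-sided, Benjamini-Hochberg within the class, threshold 0.05. DESeq2 1.42.0 was run beside it, and its shares are over all tested entries, also those it gave no adjusted p. Shares were compared by exact permutation (scipy 1.17.1). Code was tested on simulated data. Named were all features called, or the 8 with the smallest p where fewer than 6 were called, the 8 most abundant per class, and the 3 most abundant of each list, with at most 6 of each kind for piRNAs and siRNAs. Members and lists were chosen with earlier results of these data known. No pair of libraries held the same values. An entry at 1 TPM rests on at least 18.1 reads, and floors cover counting error only, since the reads carry no molecular identifiers. The single predicted miRNA whose generation difference differed between the lines is not reported here. Predicted precursors were placed against GENCODE and RefSeq annotation of the same build.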

Additional observations from a re-analysis of the deposited data

How the results depend on the processing

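The number of known miRNAs called was 0 as analysed, 19 with DESeq2, 7 with no filter on low counts, 2 with a filter of at least 10 CPM (miR-122 and miR-125b), 1 with a term for high and low tRNA libraries and 0 to 1 on leaving out 1 library. Predicted miRNAs, 5 as analysed, gave 0 with DESeq2 size factors in edgeR, 0 with library totals, 23 with DESeq2, 19 with no filter, 1 in the fit of only the 6 libraries and 0 to 12 on leaving out 1 library. Known piRNAs, 0 as analysed, gave 30 with DESeq2, 118 with no filter and 0 to 0 on leaving out 1 library. Predicted piRNAs, 0 as analysed, gave 117 with DESeq2, 23 with no filter, 1 at 10 CPM, 7 with the tRNA term and 0 to 0 on leaving out 1 library. Predicted siRNAs, 2 as analysed, gave 1 with DESeq2 size factors, 1 with library totals, 15 with DESeq2, 0 with no filter, 1 at 10 CPM, 4 in the 6 libraries, 0 for F2_Con replicate 3 alone and 1 to 13 on leaving out 1 library. Rfam families, 2 as analysed, gave 1 with DESeq2 size factors, 1 with library totals, 16 with DESeq2, 13 with no filter, 1 at 10 CPM, 1 in the 6 libraries, 0 for F2_Con replicate 3 alone, 4 with the tRNA term and 0 to 0 on leaving out 1 library. The cause of these changes was not tested. The tRNA term, replicate 3 alone and the thinning were chosen after seeing the data.

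The median log2 fold changes of the 3 lists below kept their sign in all settings run. Leaving out 1 library gave -3.28 to -1.82 for the red blood cell list, 0.96 to 1.15 for the miR-99, miR-100 and miR-125 list (1.34 with library totals, 1.56 with F2_Con replicate 3 alone) and 0.44 to 0.70 for the Dlk1-Dio3 cluster (0.85 with library totals). Of the single features, 4 changed sign. miR-34c, at -0.00, gave 0.32 with library totals, 0.0363 in the 6 libraries, 0.19 for replicate 3 alone, 0.35 with the tRNA term and -0.088 to 0.157 on leaving out 1 library. miR-127, also at -0.00, gave 0.14 with library totals, 0.0465 in the 6 libraries, 0.35 for replicate 3 alone and -0.29 to 0.58 on leaving out 1 library. miR-34a ranged from -0.63 to 1.24, and novel_mir491 gave -3.86 for F2_Con replicate 3 alone, where it had no read. The F2_Con minus F1_Con difference in the share of known piRNAs, 0.0995 percentage points, became -6.52 when taken over small RNA reads only. On leaving out 1 library it ran from -1.30 to 1.07, and that of intergenic reads from -1.71 to 0.394.

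Replicates with the same number did not deviate together in the groups (correlation of deviations for known miRNAs -0.0689, 0.135 and 0.190), so the numbers are not taken to pair libraries. A fit with the replicate number as a block called 0 predicted miRNAs and 1 Rfam family, and gave miR-34c 0.00103 and miR-127 0.0547 as log2 fold changes. The other counts of calls under the replicate block stayed within 1.5 times of those reported. Depth limits entries near 1 TPM, and the smallest exact p of 3 against 3 libraries is 0.1.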
